A study of Mus musculus with 18 samples.

Results

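The transcripts described here are 10 effector genes of natural killer (NK) cells and cytotoxic T cells: Gzma, Gzmb, Gzmk, Prf1, Nkg7, Ncr1, Klrb1c, Klrk1, Klrd1 and Eomes. They were picked by gene symbol from 19320 genes with a unique name, all 10 were found, and all 10 were among the 12905 genes tested. The values come from poly(A) RNA of whole spleens of male ICR mice, an outbred stock, aged 10 weeks. There were 18 libraries in 6 groups of 3, with levels in RPKM (a read density, corrected for gene length and library size). Con animals were the controls. A10 animals received alginate oligosaccharide (AOS), short sugar chains cut from brown seaweed, dosed at 10 mg per kg. In the STZ group streptozotocin, a toxin of the pancreatic beta cell, was used to model type 1 diabetes. STZ-A10 animals were given streptozotocin together with AOS. A10-FMT and Con-FMT animals received streptozotocin followed by a transplant of gut microbiota from donors dosed with AOS or from control donors. The transplanted material was pooled from several donors, so the recipients of a group share a single source. Every transplanted animal had received streptozotocin, so the transplants were not seen without it. The comparisons ask how the cytotoxic transcripts of the spleen differ with streptozotocin, with AOS and with either transplant.

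NK cells and cytotoxic T cells kill infected or transformed cells by releasing granules at the contact site. Perforin, the product of Prf1, opens the target membrane, and granzymes, which are serine proteases, enter the target cell and trigger its death. NK cells decide between attack and tolerance by weighing signals from activating and inhibitory receptors, and in the mouse spleen they reside mainly in the red pulp.

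The members lie on 6 chromosomes in GRCm38 (GENCODE M21), and all are protein coding. Klrb1c (chr6:128778485-128789215), Klrd1 (chr6:129591782-129598775) and Klrk1 (chr6:129610323-129623864) lie in the NK gene complex of chromosome 6. Gzma (chr13:113093825-113100981) and Gzmk (chr13:113171608-113225908) lie close together on the minus strand of chromosome 13. Ncr1 (chr7:4337724-4345164) and Nkg7 (chr7:43437073-43438249) lie far apart on chromosome 7. Gzmb (chr14:56258838-56262260), Prf1 (chr10:61297833-61304680) and Eomes (chr9:118478212-118486132) are on chromosomes 14, 10 and 9. Klrb1c has close relatives in its cluster, and the handling of reads shared between copies is not given in the sources used here.

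RefSeq promoter windows (GRCm38.p6) were found for 9 of the 10 members, all except Klrd1. The 250 bases before the annotated start are shown for 4 genes with contrasting letters, written 5′ to 3′ on the strand of the gene. Gzma (chr13:113100982-113101231, minus strand) and Ncr1 (chr7:4337465-4337714, plus strand) stand for members with matches that were lower after streptozotocin. Gzmb (chr14:56262335-56262584, minus strand) stands for the member with the highest A10 values relative to Con after Gzmk. Eomes (chr9:118477939-118478188, plus strand) stands for a member with no match. Capitals mark matches to a RUNX core (TGTGGT, or ACCACA on the other strand) or to a T-box core (AGGTGT, or ACACCT on the other strand).
Gzma: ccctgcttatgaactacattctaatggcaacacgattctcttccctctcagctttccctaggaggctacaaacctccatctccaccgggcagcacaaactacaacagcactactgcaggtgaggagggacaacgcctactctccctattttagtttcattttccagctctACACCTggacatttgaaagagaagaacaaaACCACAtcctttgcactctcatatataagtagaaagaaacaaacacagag
Ncr1: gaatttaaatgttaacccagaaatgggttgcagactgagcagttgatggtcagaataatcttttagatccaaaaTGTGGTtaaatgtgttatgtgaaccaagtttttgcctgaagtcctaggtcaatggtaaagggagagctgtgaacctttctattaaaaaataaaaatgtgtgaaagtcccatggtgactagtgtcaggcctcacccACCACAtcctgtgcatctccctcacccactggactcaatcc
Gzmb: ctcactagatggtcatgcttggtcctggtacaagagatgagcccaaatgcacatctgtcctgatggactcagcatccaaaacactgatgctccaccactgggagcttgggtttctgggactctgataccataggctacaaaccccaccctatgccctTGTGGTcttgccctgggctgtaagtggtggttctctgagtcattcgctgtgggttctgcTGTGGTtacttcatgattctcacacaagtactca
Eomes: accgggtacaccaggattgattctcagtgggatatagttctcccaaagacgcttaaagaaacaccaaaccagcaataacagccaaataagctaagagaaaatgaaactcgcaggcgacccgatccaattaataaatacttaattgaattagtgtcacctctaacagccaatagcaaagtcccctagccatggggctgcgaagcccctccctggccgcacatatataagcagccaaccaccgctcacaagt
A RUNX core was present in 7 of 9 member windows (Gzma, Gzmb, Prf1, Ncr1, Nkg7, Klrb1c and Klrk1), against 14.0% of the 32851 windows of all genes. A T-box core was present in 4 of 9 (Gzma, Gzmk, Prf1 and Nkg7), against 11.8% of all windows. An ETS core (AGGAAG, or CTTCCT on the other strand) was present in 3 of 9 (Prf1, Nkg7 and Klrb1c), against 29.5% of all windows. Matches to different cores did not overlap one another, whereas in Klrb1c 2 of its 3 ETS matches overlapped. The cores were searched with the sequences at hand, and a match is a description of the letters in this window.

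Some properties of the libraries bear on every value below. Between 10.4% and 42.7% of a library's summed RPKM came from the 6 globin genes, and A10-FMT replicate 3 had the highest share and the fewest genes at 1 RPKM or more (11532, against up to 12893). T cell, B cell, red pulp macrophage and erythroid markers were present in all libraries. Markers of neighbouring organs were present too. In Con, 9 exocrine pancreas markers summed to between 22.8 and 1824 RPKM, and in A10 to between 45.5 and 709 RPKM. They summed to between 966 and 4373 RPKM in STZ, to between 4625 and 7191 RPKM in STZ-A10, and reached 18167 in an A10-FMT library. Summed over 6 liver markers, libraries lay between 18.1 and 203 RPKM in Con and between 13.1 and 65.0 RPKM in A10. The sums were lower in STZ (4.97 to 6.06 RPKM) and STZ-A10 (4.39 to 12.6 RPKM), between 76.4 and 299 RPKM in A10-FMT and between 7.76 and 34.0 RPKM in Con-FMT. Testis germ cell markers (5 genes) summed to between 16.5 and 259 RPKM in Con and to at most 7.61 RPKM in any other library. Neutrophil markers spread widely in Con, from 748 to 14214 summed over 6 genes. The part of these tissues in the member values was not tested. In RNA of a whole organ, fewer cells of a type and less RNA per cell cannot be told apart.

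The granule transcripts Nkg7 and Gzma were the most abundant members per length. Gzma encodes granzyme A, a tryptase-like protease. Its level in Con was 27.19, 35.84 and 52.79 RPKM, and in A10 it was 33.11, 33.68 and 61.43 RPKM. In STZ it was 19.67, 8.12 and 21.06 RPKM, and in STZ-A10 it was 25.11, 11.96 and 21.8 RPKM. A10-FMT gave 18.35, 13.36 and 14.01 RPKM, and Con-FMT gave 34.98, 24.03 and 23.5 RPKM. All 6 libraries of Con and A10 therefore lay above all 9 libraries of STZ, STZ-A10 and A10-FMT, with Con-FMT between and overlapping both sides. The group means ran from 42.7 ± 16.2 RPKM (SD, n = 3) in A10 to 15.2 ± 2.71 RPKM in A10-FMT.

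Nkg7 encodes a membrane protein of cytotoxic granules that takes part in their release. Its libraries read 54.84, 45.72 and 37.78 RPKM in Con and 54.04, 40.49 and 47.27 RPKM in A10. They read 28.61, 17.67 and 24.67 RPKM in STZ and 33.41, 24.24 and 24.56 RPKM in STZ-A10. A10-FMT gave 26.81, 32.08 and 14.67 RPKM, and Con-FMT gave 41.33, 37.65 and 31.19 RPKM. As for Gzma, the 6 libraries of Con and A10 lay above all libraries of STZ, STZ-A10 and A10-FMT. For both genes, the share of all genes divided in this way was not counted. The mean in STZ was 23.7 ± 5.54 RPKM, 0.513 of the Con mean of 46.1 ± 8.54 RPKM.

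Gzmb encodes granzyme B, the granzyme that cleaves caspases. Its values were close together in Con (2.69, 2.98 and 3.02 RPKM) and far apart in A10 (6.51, 2.91 and 8.93 RPKM). They were 2.59, 1.61 and 3.25 RPKM in STZ, 2.86, 1.45 and 2.21 RPKM in STZ-A10, 1.23, 1.27 and 1.73 RPKM in A10-FMT, and 3.26, 2.04 and 3.22 RPKM in Con-FMT. In A10, 2 of 3 libraries stood above every other library of the study, while the remaining one sat inside the Con range. Gzmk encodes granzyme K, a granzyme found in memory-type cytotoxic T cells. It read 0.93, 2.43 and 2.72 RPKM in Con, 7.53, 4.63 and 2.72 RPKM in A10, 0.86, 0.83 and 1.76 RPKM in STZ, 1.93, 1.82 and 1.25 RPKM in STZ-A10, 1.33, 2.51 and 0.96 RPKM in A10-FMT, and 2.6, 3.52 and 3.26 RPKM in Con-FMT. The order differed from the other granule genes in that Con-FMT stood above Con in the mean, with overlapping libraries. Prf1 read 2.56, 4.39 and 6.3 RPKM in Con, 4.18, 4.41 and 5.14 RPKM in A10, 3.84, 2.23 and 2.94 RPKM in STZ, 3.96, 1.97 and 2.48 RPKM in STZ-A10, 2.16, 2.79 and 0.95 RPKM in A10-FMT, and 2.62, 2.78 and 3.31 RPKM in Con-FMT. The Con libraries of Prf1 reached from inside the range of the streptozotocin groups up to the highest value of the study, and A10 stood clear of every group that had received streptozotocin.

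**Figure D1:**
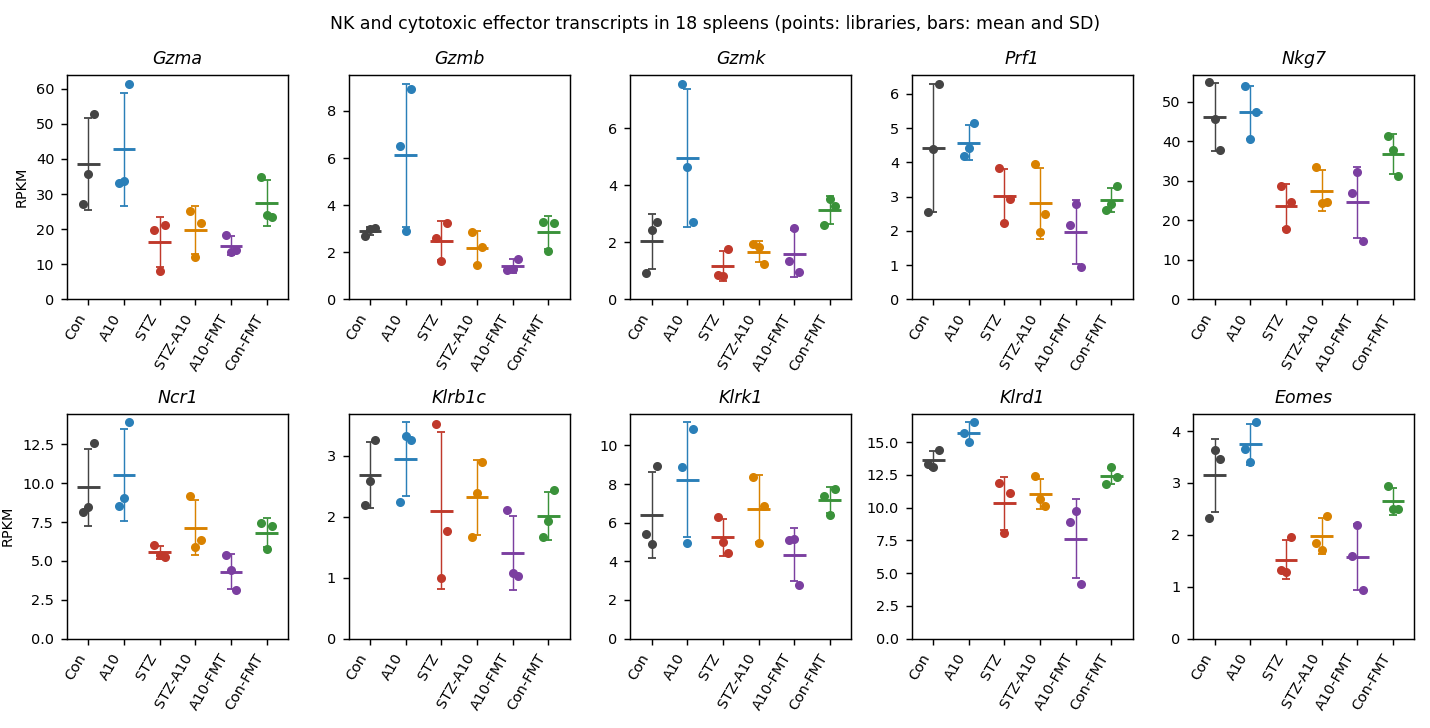
RPKM of each of the 10 members by group, with a point per library, a horizontal bar at the group mean and an error bar of 1 SD (n = 3); every axis starts at 0. The A10 mean is the highest of the 6 in all 10 panels, and the lowest mean belongs to A10-FMT in 7 panels and to STZ in 3. The share of all genes with such an order was not counted.

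Among the receptors, Ncr1 encodes NKp46, an activating receptor that marks NK cells and related innate lymphoid cells. It read 8.14, 8.49 and 12.59 RPKM in Con, 8.56, 9.04 and 13.93 RPKM in A10, 6.04, 5.37 and 5.28 RPKM in STZ, 9.16, 5.9 and 6.35 RPKM in STZ-A10, 5.35, 4.44 and 3.11 RPKM in A10-FMT, and 7.42, 5.76 and 7.27 RPKM in Con-FMT. The STZ and A10-FMT libraries lay below every Con and A10 library, whereas replicate 1 of STZ-A10 lay within the Con and A10 ranges. Klrd1 encodes CD94, the partner chain of the NKG2 receptors that read MHC class Ib. It read 13.33, 13.13 and 14.43 RPKM in Con, 15.67, 14.98 and 16.55 RPKM in A10, 11.86, 8.04 and 11.09 RPKM in STZ, 12.38, 10.63 and 10.16 RPKM in STZ-A10, 8.94, 9.76 and 4.19 RPKM in A10-FMT, and 11.83, 13.1 and 12.33 RPKM in Con-FMT. The Con libraries of Klrd1 lay close together (SD 0.7 RPKM), and its A10 libraries all exceeded them, as those of 11.7% of all genes did.

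Klrk1 encodes NKG2D, which recognises stress-induced ligands and is also carried by activated CD8 T cells. It read 5.4, 4.87 and 8.95 RPKM in Con, 8.87, 4.97 and 10.84 RPKM in A10, 6.3, 4.99 and 4.43 RPKM in STZ, 8.37, 4.93 and 6.86 RPKM in STZ-A10, 5.12, 5.14 and 2.76 RPKM in A10-FMT, and 7.38, 6.42 and 7.74 RPKM in Con-FMT. Con, STZ and STZ-A10 overlapped throughout. Klrb1c encodes NK1.1, the antigen used to identify NK cells in several inbred strains. It read 2.19, 2.58 and 3.26 RPKM in Con, 2.24, 3.32 and 3.26 RPKM in A10, 3.51, 1 and 1.77 RPKM in STZ, 1.67, 2.38 and 2.9 RPKM in STZ-A10, 2.1, 1.08 and 1.03 RPKM in A10-FMT, and 1.67, 1.93 and 2.44 RPKM in Con-FMT. STZ alone spanned the lowest and the highest Klrb1c value of the 18 libraries, while every A10-FMT library lay below every Con and A10 library.

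Eomes encodes the T-box factor Eomesodermin, which drives maturation of NK cells and memory CD8 T cells. It read 2.33, 3.63 and 3.47 RPKM in Con, 3.66, 3.4 and 4.17 RPKM in A10, 1.33, 1.28 and 1.95 RPKM in STZ, 1.85, 1.71 and 2.37 RPKM in STZ-A10, 1.6, 2.19 and 0.93 RPKM in A10-FMT, and 2.94, 2.49 and 2.5 RPKM in Con-FMT. STZ and A10-FMT lay wholly below Con, and STZ-A10 overlapped it by a single library of each. Across all members, the group order had common features. Con and A10 held the highest pair of means in 8 of 10 members, the exceptions being Gzmk and Klrk1. A10-FMT replicate 3 gave the lowest of the 18 values in 6 members. That library also had the lowest median over all genes tested, 3.32 on the log2 scale, where the highest library had 3.77. The share of all genes with these patterns was not counted. In a moderated F test over the 6 groups (limma), 8 of 10 members had an unadjusted p under 0.05, against 22.6% of all genes, and 0 passed the adjusted threshold (5 without A10-FMT replicate 2), against 0.449% of all genes. Eomes had the lowest adjusted p (0.0585) and Ncr1 the next (0.0726).

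Streptozotocin alone was compared with Con first. All 10 members were lower in STZ, with a median log2 fold change of -0.43 against -0.01 over all genes tested, where 52.4% of genes were lower. The granule genes Gzma (-1.25 ± 0.356, SE) and Nkg7 (-0.94 ± 0.246) differed most, followed by Eomes (-0.71 ± 0.179) and Ncr1 (-0.69 ± 0.211). These 4 had an unadjusted p under 0.05, against 6.44% of all genes lower at that level. None passed the adjusted threshold in limma, which 0.163% of all genes passed, and the lowest adjusted p were 0.0900 for Eomes, 0.104 for Nkg7, 0.136 for Gzma and 0.170 for Ncr1. The other members had smaller differences, -0.46 for Gzmk, -0.40 for Prf1, -0.38 for Klrd1, -0.32 for Klrb1c, -0.22 for Klrk1 and -0.19 for Gzmb. In 5 members (Gzma, Ncr1, Nkg7, Klrd1 and Eomes) every STZ library lay below every Con library, against 7.07% of all genes. Without A10-FMT replicate 3, which enters only through the shared estimate of the spread, Eomes (adjusted p = 0.0377) and Nkg7 (0.0300) passed, and without Con replicate 1 Eomes passed (0.0434).

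The same step was then taken in AOS-dosed animals, STZ-A10 against A10, a comparison chosen after the values had been seen. All 10 members were again lower, with a median of -0.63 against -0.03 over all genes. On the log2(RPKM + 1) scale, which understates the change of low genes, the granzymes differed by -1.09 ± 0.356 for Gzma, -1.09 ± 0.278 for Gzmb and -1.09 ± 0.305 for Gzmk. Their mean levels in STZ-A10 and A10 were 19.6 and 42.7 RPKM for Gzma, 2.17 and 6.12 RPKM for Gzmb, and 1.67 and 4.96 RPKM for Gzmk. Nkg7 (-0.77), Eomes (-0.68), Prf1 (-0.58), Ncr1 (-0.49) and Klrd1 (-0.48) made up the 8 members with an unadjusted p under 0.05, against 6.42% of all genes. None passed the adjusted threshold in limma, which 0.0542% of all genes passed, and the lowest adjusted p was 0.138 for Gzmb (0.0407 without A10 replicate 2). In 7 members the libraries did not overlap, against 14.9% of all genes.

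With both streptozotocin steps combined, STZ and STZ-A10 against Con and A10 (6 libraries on each side, also chosen after the values had been seen), 4 members fell past the adjusted threshold. Eomes fell by 0.69 ± 0.127 on the log2 scale (adjusted p = 0.0111), Nkg7 by 0.86 ± 0.174 (0.0182), Gzma by 1.17 ± 0.252 (0.0238) and Ncr1 by 0.59 ± 0.149 (0.0448). Of all genes, 3.3% passed in either direction and 1.93% passed as lower. Gzmk (-0.78, adjusted p = 0.0618), Gzmb (-0.64, 0.0880), Klrd1 (-0.43, 0.123) and Prf1 (-0.49, 0.180) had only an unadjusted p under 0.05, a level at which 11.2% of all genes were lower. Klrb1c (-0.29) and Klrk1 (-0.22) did not reach it. The median of the 10 was -0.61 against -0.02 over all genes, and in Gzma, Nkg7 and Klrd1 all 6 streptozotocin libraries lay below all 6 others, against 1.72% of all genes. The number of members past the threshold was 1 without STZ replicate 2 (Eomes), 2 without Con replicate 2 or without STZ-A10 replicate 2, and 6 without A10-FMT replicate 3. Over 28 alternatives Nkg7 lost its call in 2, Gzma in 5 and Ncr1 in 18, and Eomes lost it in 1 of 27.

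**Figure D2:**
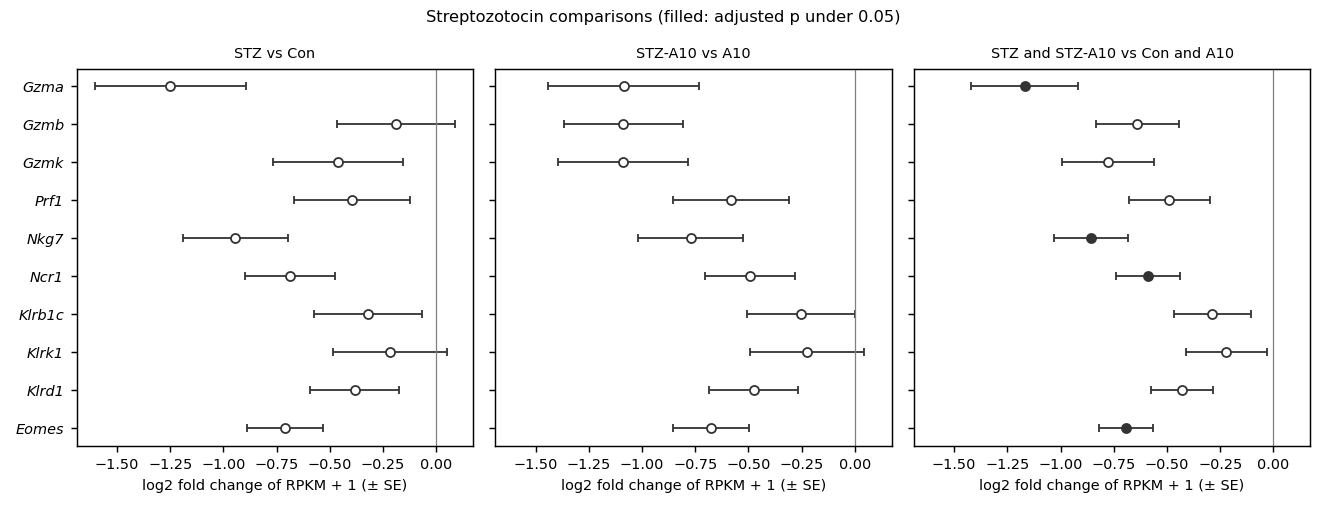
Log2 fold change of RPKM + 1 with its SE for the 10 members in STZ against Con, STZ-A10 against A10, and both streptozotocin groups against both groups without it; filled points passed an adjusted p of 0.05. All 30 points lie left of 0, and the filled ones are Gzma, Nkg7, Ncr1 and Eomes in the combined comparison.

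Markers of T cells moved together with the members in these comparisons. The summed RPKM of 8 T cell markers (Cd3d, Cd3e, Cd3g, Cd2, Cd5, Cd6, Cd28 and Trat1) was between 180 and 325 in Con, between 311 and 342 in A10, between 152 and 228 in STZ and between 162 and 242 in STZ-A10, with none of the 8 at 0. In the combined comparison all 8 were lower, with a median of -0.54, 4 of them at an unadjusted p under 0.05 and 0 past the adjusted threshold. The CD8 markers Cd8a and Cd8b1 had a median of -0.39 and the 8 B cell markers one of -0.22, whereas 6 red pulp macrophage markers had a median of 0.35 (0 lower, 1 past the adjusted threshold). The 3 CD4 markers had a median of -0.04, with Cd4 at -0.48, Foxp3 at -0.04 and Ctla4 at 0.15. The plasmacytoid dendritic cell markers had a median of -0.46 (Siglech passed the adjusted threshold as lower). The mast cell and basophil markers had one of -0.55 (Cma1 passed as lower). All 6 neutrophil markers were lower at an unadjusted p under 0.05 (median -1.45), and 5 of 6 liver markers passed the adjusted threshold as lower (median -2.30). All 4 tested testis markers were lower at an unadjusted p under 0.05 (median -1.42), and Tnp1 passed the adjusted threshold. Of 9 exocrine pancreas markers, 8 were higher at an unadjusted p under 0.05 (median 3.70), and Ctrb1 passed the adjusted threshold as higher. The part of these cells and tissues in the member differences was not tested. The members were also expressed relative to the mean of the T cell markers of the same library, a scale chosen after the values had been seen. These markers were themselves lower in this comparison, so the scale raises every member and cannot test the part of T cells. On that scale 0 members passed the adjusted threshold in limma and 1 had an unadjusted p under 0.05. Gzma was at -0.65 ± 0.281 (adjusted p = 0.0742), Nkg7 at -0.34, Gzmk at -0.25, Eomes at -0.17, Gzmb at -0.12 and Ncr1 at -0.07. Prf1 (0.03), Klrd1 (0.09), Klrb1c (0.23) and Klrk1 (0.30) changed sign. The scale moves all genes of a library alike: the median of all genes went from -0.02 to 0.50, where 3141 genes passed as higher and 31 as lower, and the median of the members was -0.09. The 4 calls on the deposited scale were lost on this scale.

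**Figure D3:**
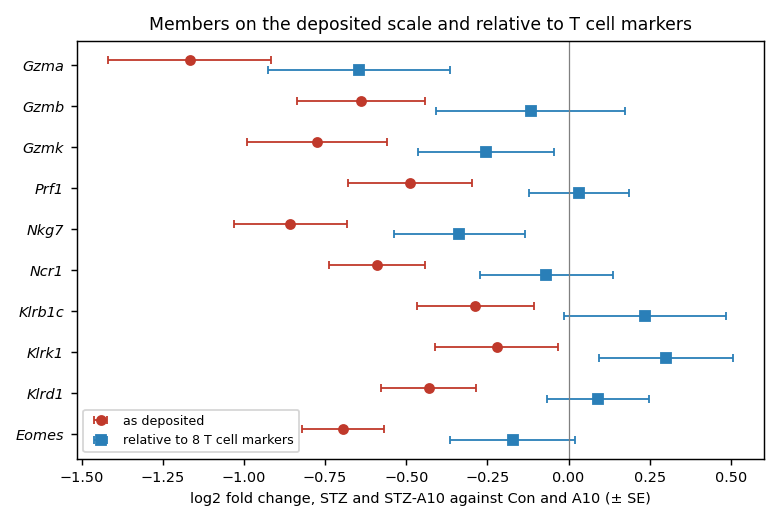
Log2 fold change with its SE for STZ and STZ-A10 against Con and A10, as deposited (circles) and relative to the mean of 8 T cell markers (squares). The squares of all 10 members lie right of their circles, Gzma stays lowest at -0.65, and 4 squares lie above 0.

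AOS without streptozotocin was compared as A10 against Con. All 10 members had a higher mean in A10, with a median of 0.16 on the log2 scale against 0.05 over all genes. Gzmk (0.95 ± 0.305, adjusted p = 0.657) and Gzmb (0.77 ± 0.278, 0.728) had an unadjusted p under 0.05, against 3.56% of all genes higher at that level, and none passed the adjusted threshold in limma, which 0.00775% of all genes passed. The remaining 8 differences lay between 0.04 (Nkg7) and 0.30 (Klrk1). Without A10 replicate 1 neither Gzmk nor Gzmb kept an unadjusted p under 0.05, and without A10 replicate 3 Gzmb did not (0.48). Gzmb is also made by plasmacytoid dendritic cells, whose 5 markers summed to 109 to 126 RPKM in Con and 155 to 308 RPKM in A10, mostly through Bst2 (mean 73.5 and 157 RPKM), with Siglech at 9.31 and 14.9 RPKM and Klk1 at 14.2 and 11.5 RPKM. It is made too by mast cells and basophils, whose 6 markers summed to 10.4 to 14.2 RPKM in Con and 6.52 to 8.73 RPKM in A10. Their part in the Gzmb values was not tested. The 8 T cell markers were all higher in A10 (median 0.38), and relative to them 0 members had an unadjusted p under 0.05, with a median of -0.24 against -0.36 over all genes.

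AOS on top of streptozotocin was compared as STZ-A10 against STZ. In this comparison 8 members were higher and 2 (Gzmb and Prf1) lower in STZ-A10, from -0.13 to 0.33. The median of the members was 0.23 against 0.03 over all genes, where 41.3% of genes were lower. At an unadjusted p under 0.05 there were 0 members, and 0 passed the adjusted threshold in limma (0.00775% of all genes passed it). The interaction, which asks whether the streptozotocin difference depended on AOS, was largest for Gzmb at -0.90 ± 0.394 (unadjusted p = 0.0371, adjusted p = 1.00), the sole member with an unadjusted p under 0.05, against 1.65% of all genes at a negative interaction. Leaving out any 1 of the Con libraries left 0 members at that level, and this count changed in 11 of 28 alternatives. Over the libraries left out in turn Gzmb ranged from -1.28 (without A10 replicate 2) to -0.61 (without A10 replicate 3). The interaction passed the adjusted threshold in 0 members and in 0% of all genes in limma, of which 369 had an unadjusted p under 0.05.

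Each transplant group was compared with STZ. In A10-FMT against STZ, 6 members were lower and 4 higher. The median of the members was -0.28 against -0.15 over all genes, where 72.3% of genes were lower. Klrd1 alone had an unadjusted p under 0.05 (-0.45 ± 0.207, adjusted p = 0.288), against 15.2% of all genes lower at that level. Klrd1 was at -0.12 without A10-FMT replicate 3, and after centring each library on its median 0 members had an unadjusted p under 0.05; this count changed in 21 of 28 alternatives. All 8 T cell markers were lower too (median -0.40, 0 at an unadjusted p under 0.05). No member passed the adjusted threshold, which 0.00775% of all genes passed. Gzma, Nkg7 and Eomes, which differed most between STZ and Con, differed between A10-FMT and STZ by 0.00 ± 0.356, 0.01 ± 0.246 and 0.01 ± 0.179. In Con-FMT against STZ, 9 members were higher and Prf1 was at -0.02. The median of all genes was 0.00, and 49.6% of them were lower. Gzmk (0.96 ± 0.305), Gzma (0.80 ± 0.356), Nkg7 (0.63 ± 0.246) and Eomes (0.54 ± 0.179) had an unadjusted p under 0.05, against 2.66% of all genes higher at that level. Their adjusted p were 0.842 to 0.935, so none passed the threshold, which 0.00775% of all genes passed. Every Con-FMT library lay above every STZ library in these 4 and in Klrk1, against 6.94% of all genes. Without STZ replicate 2, Gzma was at 0.39, and Gzmk and Eomes alone kept an unadjusted p under 0.05. All 8 T cell markers were also higher in Con-FMT (median 0.57, against 0.33 for the members), and relative to them 7 members were lower, with a median of -0.23 against -0.56 over all genes.

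A10-FMT against Con-FMT compares recipients of the AOS donor pool with recipients of the control donor pool. Each side had a single pool, so the p-values measure the spread among recipients and not among donors. All 10 members were lower in A10-FMT, with a median of -0.64 against -0.17 over all genes, where 71.0% of genes were lower. The differences at an unadjusted p under 0.05 were -0.80 for Gzma, -0.71 for Klrd1, -0.70 for Gzmk, -0.66 for Gzmb, -0.65 for Klrk1, -0.62 for Nkg7, -0.58 for Ncr1 and -0.53 for Eomes, so 8 members met it, against 20.1% of all genes. In limma 0 members and 0% of all genes passed the adjusted threshold, although 3040 genes had an unadjusted p under 0.05, and the adjusted p of these 8 members were 0.204 to 0.208. In 7 members the libraries did not overlap, against 23.9% of all genes. The count depended on the scale. After centring each library on its median, 3 members had an unadjusted p under 0.05, the median of the members was -0.46, and the split of all genes at that level turned from 2590 lower and 450 higher to 1074 lower and 1360 higher. Without A10-FMT replicate 3, 2 members remained at an unadjusted p under 0.05, Klrd1 (-0.37) and Gzmb (-0.75), and without A10-FMT replicate 2 the members Klrd1, Eomes and Nkg7 passed the adjusted threshold, as did 2625 of 12891 genes. The 8 T cell markers summed to 64.2 to 233 RPKM in A10-FMT and 266 to 292 RPKM in Con-FMT, and all 8 were lower at an unadjusted p under 0.05 (median -0.99). Expression relative to these markers moves all genes of a library alike. On that scale the median of all genes was 0.81 and that of the members 0.34, and 9303 of 12905 genes and 1 member, Prf1, passed the adjusted threshold.

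Both transplant groups were also set beside Con, after the values had been seen. In A10-FMT against Con the median of the members was -0.77 against -0.18 over all genes, and 8 members, all but Gzmk and Klrk1, had an unadjusted p under 0.05, against 23.5% of all genes. Ncr1 came closest to the adjusted threshold (-1.02 ± 0.211, adjusted p = 0.0695), which 0 members and 0.0697% of all genes passed in limma, and in 7 members the libraries did not overlap, against 15.2% of all genes. Without A10-FMT replicate 2, 6 members passed, as did 3294 of 12891 genes. All 8 T cell markers were lower as well (median -0.86, 7 at an unadjusted p under 0.05), and the median of the B cell markers was -0.72. Relative to the T cell markers 5 members were higher and 5 lower, 0 of them at an unadjusted p under 0.05, and their median was 0.05 where that of all genes was 0.64. In Con-FMT against Con, 8 members were lower and 2 higher (Gzmk at 0.50 and Klrk1 at 0.18). The median of the members was -0.23 against -0.01 over all genes, where 51.5% of genes were lower. In limma 0 members had an unadjusted p under 0.05 and 0 passed the adjusted threshold, against 0.00775% of all genes, and the members ranged from -0.45 to 0.50. The count at an unadjusted p under 0.05 changed in 11 of 28 alternatives and was 2 without Con replicate 1. In 2 members, Ncr1 and Klrd1, every Con-FMT library lay below every Con library, against 5.52% of all genes. All of these comparisons share the STZ or Con libraries with earlier ones and are not independent of them.

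**Figure D4:**
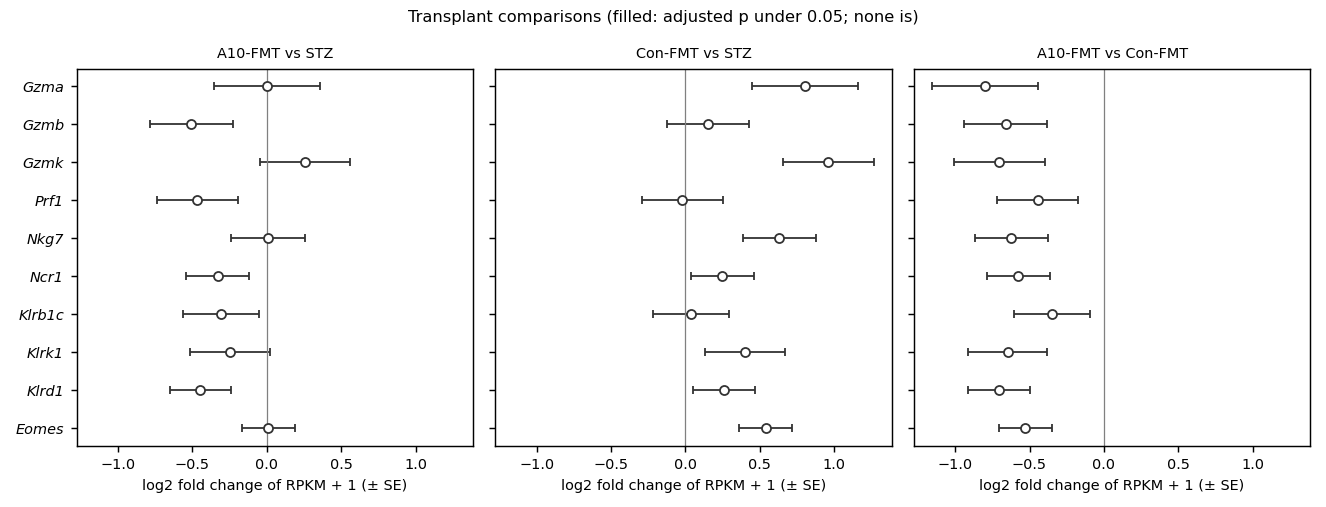
Log2 fold change of RPKM + 1 with its SE for the 10 members in A10-FMT against STZ, Con-FMT against STZ, and A10-FMT against Con-FMT; no point passed an adjusted p of 0.05. The first panel straddles 0, 9 of 10 points of the second lie above 0, and all 10 points of the third lie below 0.

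The wider cytotoxic pathway was followed in 101 further genes, of which 93 were tested. In STZ against Con 0 of the 93 passed the adjusted threshold in limma, 20 were lower and 1 higher at an unadjusted p under 0.05, against 6.44% of all genes lower, and the median was -0.25. In the combined streptozotocin comparison 9 fell past the adjusted threshold and 0 rose, against 1.93% of all genes that fell, with a median of -0.25. Of the 9, 8 were receptors of the NK gene complex. Klra4 (Ly49D, activating) fell by 1.13 ± 0.165 (adjusted p = 0.00397), Klra7 (Ly49G) by 1.08 (0.00467), Klra9 (Ly49I) by 1.13 (0.0297), Klre1, a chain of a further lectin-like receptor, by 0.99 (0.0127) and Klra8 (Ly49H) by 0.85 (0.0189). Klra1 (Ly49A), Klra17 (Ly49Q, carried by plasmacytoid dendritic cells rather than most NK cells) and Klra3 (Ly49C) fell by 0.70, 0.65 and 0.64. The Klra genes are near-identical copies whose number differs between mouse strains, so the split of reads among them is uncertain. As an example per library, Klra4 read 4.08, 4.23 and 3.87 RPKM in Con and 3.51, 3.43 and 5.45 RPKM in A10. It read 1.37, 0.74 and 1.46 RPKM in STZ, and 1.85, 1.01 and 1.64 RPKM in STZ-A10. No STZ or STZ-A10 library of Klra4 reached the lowest library of Con and A10, as in 1.72% of all genes. The same held for Klra1, Klra3, Klra7, Klra9 and Klre1, whereas the libraries of Klra8 and Klra17 overlapped. These genes were named for their calls in this same comparison, so the lack of overlap is not separate evidence. Outside the receptors, Ifng, the main cytokine of activated NK cells, fell by 0.63 (adjusted p = 0.0297) from low values of 0.68 to 1.89 RPKM in Con and A10. Relative to T cell markers, where 31 genes in all passed as lower, Klra9 alone of these 9 passed the adjusted threshold (-0.61, adjusted p = 0.0485), Klra7 (-0.56, 0.0523) and Klra4 (-0.61, 0.0618) came close. Klra4, Klra7 and Klre1 kept their calls under every other alternative tried, whereas Klra17 lost its call in 16 of 28, Klra3 in 14 of 27, and Klra9 and Ifng each in 8 of 27.

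By list, the combined comparison gave the following counts at an unadjusted p under 0.05, a level at which 11.2% of all genes were lower. Among 29 tested NK receptors 12 were lower and 1 higher, among 21 cytokine receptors, ligands and homing genes 7 were lower and 0 higher, and among 15 genes of the granule and death ligand machinery 5 were lower and 0 higher. Among 14 transcription factors 3 were lower and 1 higher, and among 14 adaptors and signalling genes 2 were lower and 0 higher. In STZ against Con the leading genes of each list, none past the adjusted threshold, were Rab27a (-0.72), which docks granules at the membrane, and Stx11 (-0.55), which takes part in their fusion, Klra4 (-1.22) and Klre1 (-1.18), the adaptors Sh2d1a (-0.61) and Lcp2 (-0.46), the transcription factors Id2 (0.37) and Nfil3 (-0.35), and Ifng (-0.55). Id2, required for NK and innate lymphoid cells, went the other way from the members. It read 37.07, 38.56 and 39.47 RPKM in Con and 60.23, 46.22 and 44.41 RPKM in STZ, without overlap, and its adjusted p was 0.421.

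**Figure D5:**
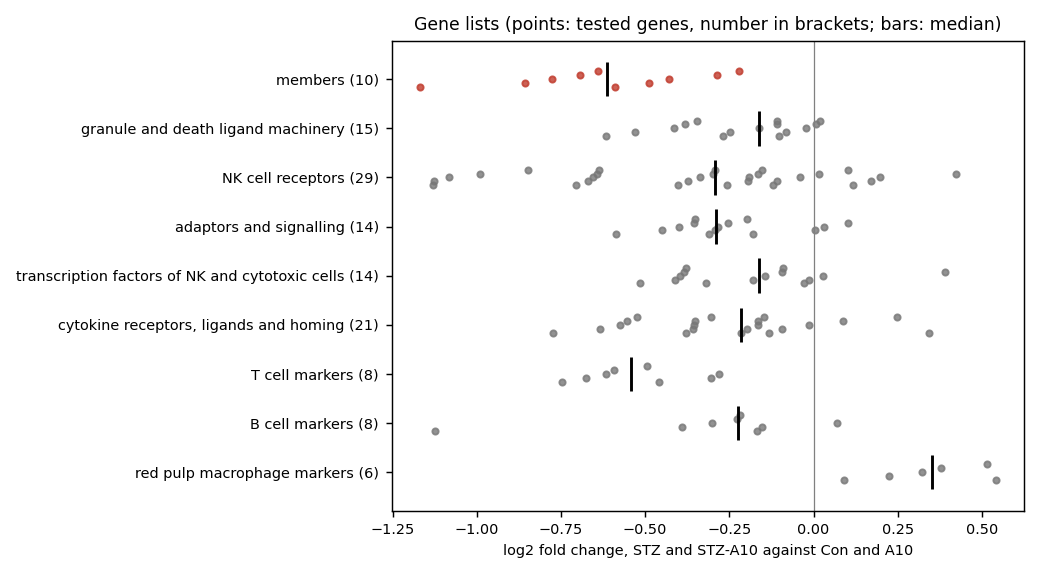
Log2 fold change for STZ and STZ-A10 against Con and A10, with a point per tested gene and a vertical bar at the median of each list, for the members, 5 lists of the cytotoxic pathway and markers of T cells, B cells and red pulp macrophages. The medians of the members (-0.61) and of the T cell markers (-0.54) lie lowest, and that of the red pulp macrophage markers (0.35) lies above 0.

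The members varied together across libraries. Pairs of other genes are not given beside them. The other 12895 tested genes followed the mean of the standardized member levels at a median r of 0.39. Over the 18 libraries the 45 pairs of members had Pearson correlations of 0.26 (Gzmk with Klrb1c) to 0.87 (Prf1 with Ncr1), with a median of 0.68. After the group means had been removed, 41 of 45 pairs were still positive, with a median of 0.42 and the highest value, 0.83, for Ncr1 with Klrk1. Klrd1 followed the mean of the other members most closely (r = 0.91) and Gzmk least (0.61). These libraries differ in globin share, which all genes of a library have in common, and the part of that share in the correlations was not tested. Set against its own mean over the 18 libraries, every member was above it in Con replicate 3, A10 replicate 1 and A10 replicate 3. No member was above its mean in STZ replicate 2, A10-FMT replicate 1 and A10-FMT replicate 3. Such counts were not made for all genes.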

How the data were processed

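Total RNA of frozen spleens was enriched for poly(A) RNA and sequenced on an Illumina instrument. RPKM values per gene were computed by the authors and deposited to 2 decimals. The study's methods name SOAPaligner against reference genes, whereas the submitters' processing notes name Bowtie 0.12.2 and mm10. The strand setting and the annotation are not given in the sources used here. Read counts were not used here, which leaves the depth unknown and allows no counting interval. Groups came from the sample labels, and the 3 libraries of a group were treated as separate animals.

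Lines with 3 repeated names (6 of 19326) were dropped. Values were analysed as log2(RPKM + 1), which understates changes of low genes. Genes at an RPKM of 1 in at least 3 libraries (12905) were fitted with limma 3.58.1 (trend) in R 4.3.3, with all 18 libraries fitted together and 1 coefficient for each group. P-values were two-sided and adjusted by the Benjamini-Hochberg method over all genes tested, at a threshold of 0.05. The scripts were tested on simulated data. Comparisons covered 6 pairs of groups, the interaction and the F test. Another 4 comparisons and the T cell scale were added after the values had been seen. The members and lists were chosen with earlier results of these data known. Members are named with fold changes in STZ against Con, elsewhere if at an unadjusted p under 0.05, and pathway genes if among the 2 lowest p of a list in STZ against Con or past the adjusted threshold. A gene of the pathway lists is not reported here and was left out of their counts. Alternatives were quantile normalization, median centring, no filter, a stricter filter, a pseudocount of 0.1, no trend, array weights, a replicate block, the compared groups alone and leaving out each library.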

Additional observations from a re-analysis of the deposited data

How the results depend on the processing

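Depth is unknown, and within a library low values (Gzmk, Klrb1c, Eomes, Ifng) rest on fewer reads per kilobase. Of 1877 alternative values for 68 gene and comparison pairs, 1677 kept direction and side of the adjusted threshold, 83 lost the call, 90 gained it and 27 changed direction. The cause was not tested.

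With 1 library left out at a time, the number of members past the threshold was 0 to 2 in STZ against Con, 0 to 3 in A10-FMT against Con-FMT, 0 to 1 in STZ-A10 against A10, 0 to 6 in A10-FMT against Con, 1 to 6 in the combined streptozotocin comparison and 0 to 5 in the F test. Array weights, whose estimation stopped before convergence, gave 9 members in STZ against Con, 4 in A10 against Con, 3 in STZ-A10 against STZ, 3 in A10-FMT against STZ, 6 in Con-FMT against STZ, 8 in A10-FMT against Con-FMT, 2 in the interaction, 9 in STZ-A10 against A10, 9 in A10-FMT against Con, 5 in Con-FMT against Con, 10 in the combined comparison and 10 in the F test, but also called 7552 of all genes in the combined comparison. An RPKM of 1 in every library, which removes Eomes, Gzmk and Prf1, left 2 members there, and quantile normalization or median centring gave 6. Over all genes, leaving out a library gave 0 to 234 calls in STZ against Con (21 with all), 122 to 982 in the combined comparison (426), 1 to 52 in STZ-A10 against A10 (7), 1 to 3294 in A10-FMT against Con (9), 0 to 2625 in A10-FMT against Con-FMT (0) and 4 to 814 in the F test (58).

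Relative to T cell markers, 0 members passed in the combined comparison and 1 in A10-FMT against Con-FMT, Prf1 at 0.53, where 9303 of 12905 genes passed and the median of all genes was 0.81. That scale turned the all-gene split of the combined comparison from 249 lower and 177 higher to 31 lower and 3141 higher. It turned Klrd1 (0.015), Prf1 (0.0036), Gzmb (0.21), Klrb1c (0.078), Klrk1 (0.18) and Nfil3 (0.049) in STZ against Con, and Eomes (-0.017) in Con-FMT against STZ. In A10-FMT against Con-FMT it turned Gzma (0.17), Klrd1 (0.27), Eomes (0.44), Gzmk (0.27), Gzmb (0.31), Ncr1 (0.40), Klrk1 (0.32) and Nkg7 (0.35). It also turned Klrd1 (0.17), Prf1 (0.062) and Ncr1 (0.15) in STZ-A10 against A10, Eomes (0.11), Gzmb (0.12) and Klrb1c (0.18) in A10-FMT against Con, and Klrd1 (0.091) and Prf1 (0.033) in the combined comparison. Array weights turned Klrk1 in STZ against Con (0.023) and Klrd1 in A10-FMT against STZ (0.080). Leaving out a library moved Gzmb from -0.35 to 0.0045 and Klrk1 from -0.37 to 0.015 in STZ against Con.

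Residuals of libraries with the same replicate number in different groups correlated at -0.385 to 0.571 (median 0.04). Those of libraries with different numbers in different groups correlated at -0.584 to 0.511 (median -0.01). Whether some same-numbered libraries were paired or shared a batch cannot be told from ranges this wide. With the number as a replicate block, 0 members passed in STZ against Con and 4 in the combined comparison (338 of all genes), where Ncr1 was at an adjusted p of 0.0547 and Gzmb at 0.0395.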

Other observations

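Among the genes reported here, the 10 outside the members whose levels followed the mean of the standardized member levels most closely over the 18 libraries were Mlec, Ppp2r5a, Dbnl, Samhd1, Papss2, Cfb, Gmcl1, Nabp1, Ptafr and Ifi209, with Pearson correlations of 0.92 to 0.96. The median over the other 12895 genes was 0.39 and the 95th percentile 0.82. None of these 10 was on a list of the cytotoxic pathway or of T cell markers. Mlec, which encodes malectin, a lectin of the endoplasmic reticulum, had mean levels of 53.9 RPKM in Con, 58.4 in A10, 41.6 in STZ, 47.5 in STZ-A10, 38.4 in A10-FMT and 48.9 in Con-FMT, the same order of extremes as Gzma. The libraries differ in globin share, which all genes of a library have in common, and the part of that share in these correlations was not tested.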
